A study of Mus musculus with 12 samples.

Results

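The early response of mouse TM3 cells to 1 mM methoxyacetic acid (MAA) was measured after 3 h on 2 arrays of the 12 in the series. TM3 is a line of Leydig cells from mouse testis, MAA is the active metabolite of the solvent ethylene glycol monomethyl ether, and control cells received only the medium. Each array set RNA of a pool of 3 MAA-treated cultures against control RNA, the MAA pools of the pair being separate, with MAA-treated RNA in the green dye on replicate 1 and in the red dye on replicate 2. Log2 ratios of MAA-treated over control signal were averaged per probe, and the 26196 of 41174 probes (63.6%) whose signal was well above background on both arrays, in either channel, were kept, 15670 of them with a gene symbol. The rest of the series holds 5 mM MAA at 3 h and both concentrations at 8 h and 24 h, each also on 2 dye-swapped arrays against control cells of its own time. It was asked which genes respond early to the lower concentration.

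Leydig cells lie between the seminiferous tubules of the testis and make testosterone from cholesterol. They carry the receptor for luteinizing hormone, which acts through cyclic AMP, and growth factor signals reach them through the ERK kinase cascade. MAA is a short carboxylic acid known as a testicular toxicant and as a histone deacetylase inhibitor. Immediate early genes, which encode factors such as EGR1, FOS and NR4A1, are transcribed without new protein synthesis within the first hours of a stimulus.

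Of 10 Leydig cell markers, Star, Cyp17a1, Insl3, Nr5a1 and Gata4 stood well above background in control RNA on both arrays, while Cyp11a1, Hsd3b1, Hsd3b6, Lhcgr and Hsd17b3 did not. Of 10 peritubular and fibroblast-like markers 9 were above background, and no endothelial marker of 6 was. By the same criterion 4 of 9 Sertoli cell, 4 of 8 germ cell and 2 of 7 macrophage markers were above background. In control RNA the summed signal of the germ cell markers was 1324 on replicate 1 and 1253 on replicate 2. The summed signal of the Leydig markers was 390 with MAA and 384 in control on replicate 1 and 349 and 359 on replicate 2, and no Leydig marker was called. The cells are therefore called TM3 cells here, by their label. As bulk RNA, a ratio does not separate less RNA per cell from fewer cells that express a gene.

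The pair of arrays agreed weakly. Across the 26196 probes, which share arrays and so are not replicates, replicate 1 and replicate 2 correlated with r = 0.154, against 0.410 for the 24653 probes above background in both channels on both arrays. At 237 probes the arrays passed 1.5-fold in opposite directions, and at 218 of these the ratio was low on replicate 1 and high on replicate 2. A term for the replicate number, which is also the dye orientation, had an adjusted p under 0.05 at 114 of the 237 and at 4631 (17.7%) of the 26196 probes over the 12 arrays. When that term was estimated from the other 10 arrays and subtracted, r was 0.443. Slide, scan day, dye orientation and MAA pool all change together between these arrays and cannot be told apart.

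A probe was called at an unadjusted moderated p under 0.005 and a change over 1.5-fold, the study's thresholds for 1 mM. In limma's fit, 469 probes (1.79% of those tested) were called increased and 213 (0.813%) decreased. Of the 682, 614 had a Benjamini-Hochberg adjusted p under 0.05 over all probes, and the largest adjusted p was 0.0786. The arrays had the same sign at all 681 called probes measured on both, and 335 increased and 141 decreased probes passed 1.5-fold on each array by itself. The call rule nearly ensures the same sign, as it asks for a large mean and a small p from these arrays. Among all probes kept, the sign was the same at 61.1%. Changes were small: the median log2 ratio was 0.76 for increased and -0.74 for decreased probes, and 111 increased and 26 decreased probes passed 2-fold. The median over all 26196 probes was -0.0093.

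**Figure D1:**
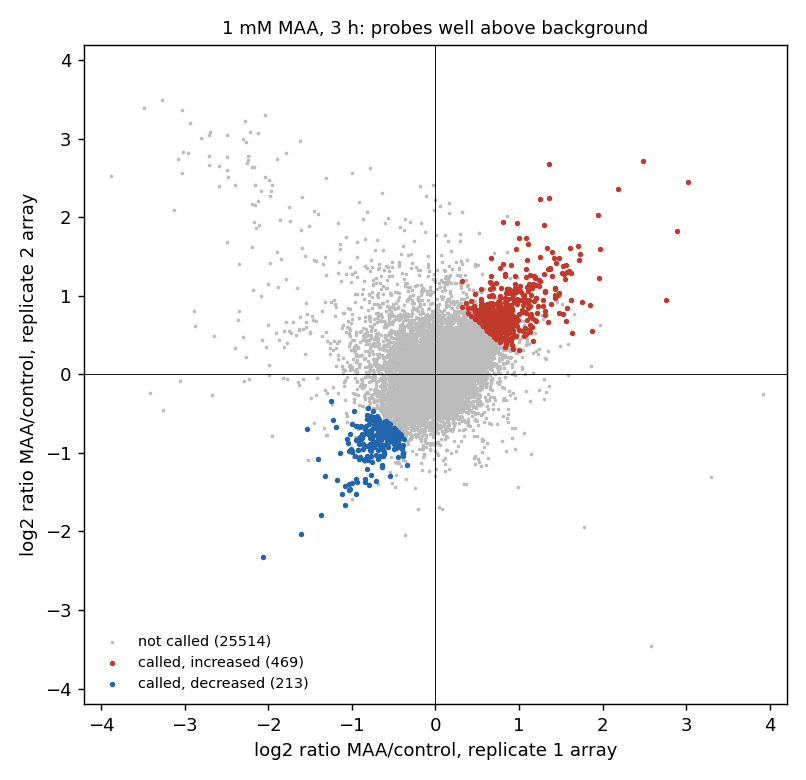
Log2 ratio of MAA-treated over control signal on the replicate 1 array (x axis) and the replicate 2 array (y axis) for the 26196 probes well above background, with the 469 increased probes in red, the 213 decreased probes in blue and the others in grey. Called probes lie in the upper right and lower left, and the grey probes at the upper left include the 218 that passed 1.5-fold down on replicate 1 and up on replicate 2.

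Most calls came from probes of low control signal. The median control signal was 81.0 for increased and 204 for decreased probes, against 641 for all 26196. With the probes ordered by control signal into 5 equal groups, increased calls numbered 192, 155, 89, 29 and 4 from the dimmest to the brightest, and decreased calls 44, 71, 66, 26 and 6. The control signal is also the denominator of the ratio, and a probe dim in control could be kept through the MAA channel alone. The excess of increased over decreased calls in the dimmest group can therefore come from these choices. The arrays correlated with r = -0.107 in the dimmest group and with 0.408, 0.570, 0.548 and 0.307 in the others. At 31 increased and 3 decreased probes the dimmer channel failed the background criterion on both arrays, so that these probes were kept only through the brighter channel and their fold is a lower limit. With normexp correction (offset 50) and loess together, in place of the processed signals, the fit called 116 probes, 59 increased and 57 decreased, all 116 among the 682. Fitted without the other 10 arrays, the pair gave 49 calls, 44 of them increased.

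**Figure D2:**
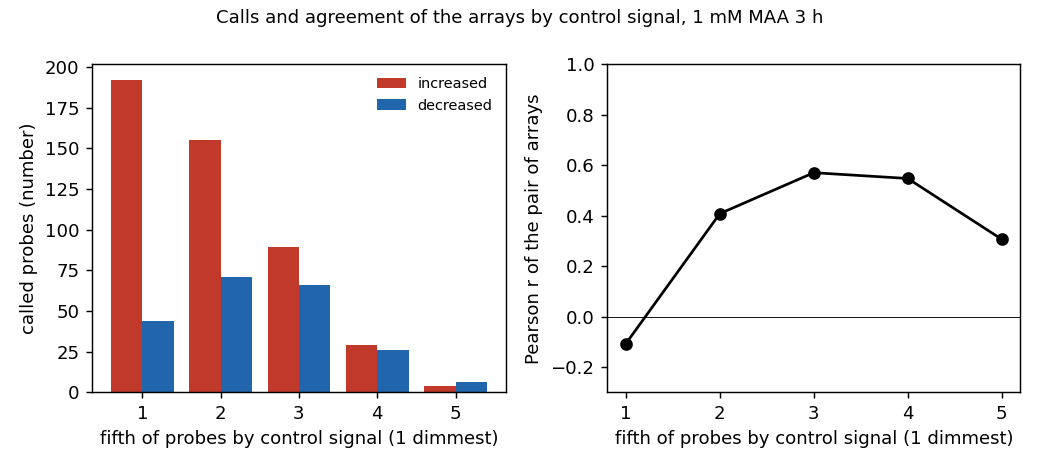
Left, the number of increased (red) and decreased (blue) called probes in each of 5 equal groups of the 26196 probes ordered by mean control signal, and right, Pearson r between replicate 1 and replicate 2 in the same groups. Increased calls fall from 192 in the dimmest to 4 in the brightest group, and r is lowest, at -0.107, in the dimmest.

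The largest increase was that of Slc2a4, which encodes the insulin-responsive glucose transporter GLUT4. Its probe A_51_P217498 had a signal of 159 with MAA against 19.5 in control on replicate 1 and of 134 against 24.5 on replicate 2, log2 ratios of 3.02 and 2.45 with a mean of 2.74 ± 0.15 (SE of the fit, n = 2, adjusted p = 0.000471), a 6.66-fold increase. Areg, which encodes the EGF receptor ligand amphiregulin, rose 4.84-fold, with signals of 62.4 against 13.7 and of 51.8 against 10.1. Its log2 ratios were 2.19 and 2.36, mean 2.28 ± 0.11 (adjusted p = 0.000334), and its control signal was well above background on 1 of the 2 arrays. On both arrays the ratios of these genes exceeded the SD over all probes kept, 0.34 on replicate 1 and 0.35 on replicate 2. Their control signals lay in the dimmest of the 5 groups of probes, under 47.6, for which no SD was computed.

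Il7r, the interleukin 7 receptor, rose at least 1.72-fold (adjusted p = 0.00501), and Nod2, a sensor of bacterial cell wall fragments, at least 1.56-fold (adjusted p = 0.00658). These adjusted p values belong to the measured ratios and not to the limits, and both probes were kept only through the MAA channel. Their control signals were too dim for the background criterion, with Il7r at 15.0 against 2.69 and 15.0 against 2.29. Gch1 encodes GTP cyclohydrolase, which starts the synthesis of tetrahydrobiopterin. It was called at 2 probes, at least 1.92-fold at the dimmer one and with log2 ratios of 1.20 and 1.13 at the other.

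Kank3, which encodes an ankyrin repeat protein, showed the closest agreement among the leading genes. Its signals were 902 against 324 and 831 against 298, and both log2 ratios were 1.48 (mean 1.48 ± 0.06, adjusted p = 0.000227). Csdc2, which encodes a cold shock domain RNA-binding protein, stood at 748 against 243 and 643 against 262, a mean log2 ratio of 1.46 ± 0.10 (adjusted p = 0.00136). The rest of the 12 leading genes were Cys1, which encodes the cilium protein cystin (log2 ratios 1.97 and 1.60), Abhd15 (1.96 and 1.22), Nrarp, a feedback regulator of Notch (1.57 and 1.40), Eva1a (1.60 and 1.32) and Chst1, a carbohydrate sulfotransferase (1.52 and 1.38). All of these had control signals under 25 on both arrays. Abhd15 was not called from the replicate 2 array alone, at 1.22.

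Normexp and loess lowered most of these ratios. Under that alternative Slc2a4 stood at 0.78, Areg at 0.44, Il7r at 0.17 and Cys1 at 0.31, and none of the 4 was called. Kank3 kept 0.98 and Csdc2 0.92, both called. Of 47 named genes called, 12 were called with normexp and loess, and Kank3, Csdc2, Kcnab3 and Plcd1 were called under all 27 alternatives. Most of these calls use limma's unadjusted p, and the largest adjusted p of each of the 4 genes over the alternatives was 0.908.

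The leading decreases were smaller. Of the called probes, 6 without a gene symbol had lower ratios than any named gene, down to -2.19. Ifit1, an interferon-induced antiviral gene, fell 2.40-fold, with signals of 18.1 against 41.0 on replicate 1 and 14.2 against 36.0 on replicate 2 (log2 ratios -1.18 and -1.34, mean -1.26 ± 0.14, adjusted p = 0.00461). Gbp2b, which encodes an interferon-induced guanylate-binding protein, fell 2.37-fold, from 129 to 63.3 and from 146 to 53.0 (mean -1.24 ± 0.11, adjusted p = 0.00258). Tlr7, a sensor of single-stranded RNA, fell 1.97-fold, from 548 to 292 and from 528 to 254 (mean -0.98 ± 0.07, adjusted p = 0.00151). In these 3 genes each MAA signal lay below each control signal.

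Dido1 had the brightest signals among the 9 leading decreases reported here, 1447 with MAA against 3184 in control on replicate 1 and 1347 against 2684 on replicate 2, and a mean log2 ratio of -1.07 ± 0.09. Its other probes gave -0.85 and -0.21 and were not called, so the probes of this gene differ. Vpreb1, a component of the pre-B cell receptor (-1.25), Dnajc6, a cochaperone of clathrin uncoating (-1.02), Tmem204 (-1.01), Tmem178 (-1.01) and Lrrc66 (-0.99) made up the rest. The MAA signal of Tmem178, 11.6 and 10.2, was well above background on 1 of the 2 arrays. Dnajc6 and Tmem204 were not called from the replicate 1 array alone, at -0.77 and -0.82, and Tmem178 was called from neither array alone, at -0.97 and -1.04.

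**Figure D3:**
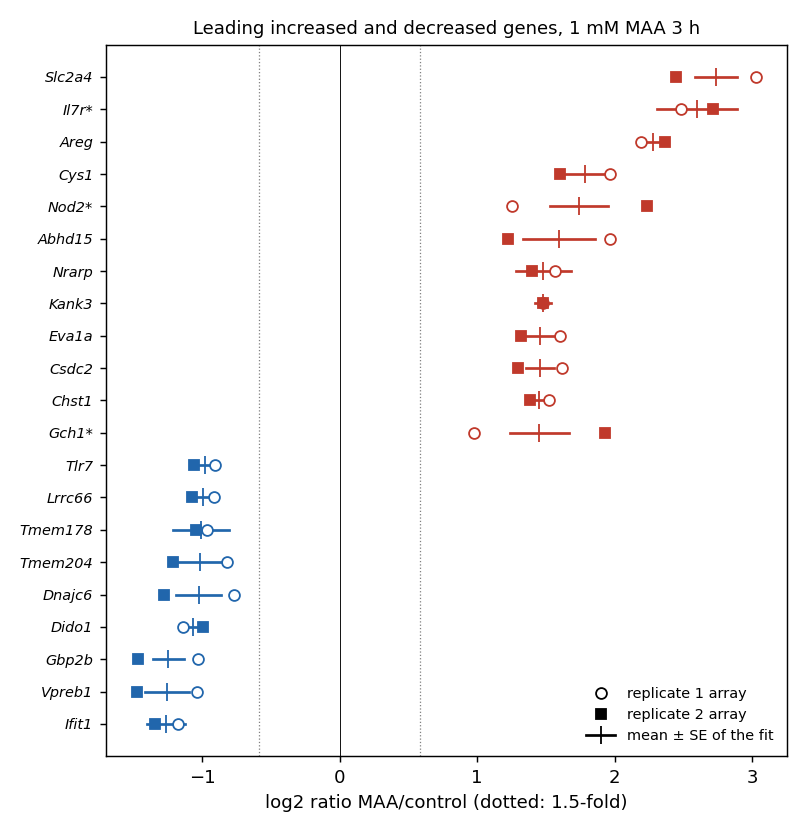
Log2 ratio of MAA-treated over control signal for the 12 leading increased (red) and 9 leading decreased (blue) genes, with the replicate 1 array as open circles, the replicate 2 array as filled squares, and the mean and its SE from the fit as a tick and a bar. An asterisk marks Il7r, Nod2 and Gch1, whose control signal failed the background criterion on both arrays, and dotted lines mark 1.5-fold.

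Gene groups were read with 1 probe per gene, the probe of highest mean signal. Of 11110 genes so tested, 205 (1.85%) were called increased and 84 (0.756%) decreased, and their median log2 ratio was -0.0025. The groups are described by counts against these shares, with no test.

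Among 25 immediate early transcription factor genes 3 were called increased and none decreased, with a group median of 0.12. Egr2, a zinc finger factor, had signals of 109 against 51.0 and 91.3 against 48.1, a mean log2 ratio of 1.01 ± 0.10 (adjusted p = 0.0033). The orphan nuclear receptor Nr4a1 stood at 0.86 and 0.89 (mean 0.88 ± 0.07, adjusted p = 0.00167). Egr1 stood at 0.93 on replicate 1 and 0.48 on replicate 2 (mean 0.71 ± 0.12, adjusted p = 0.0198) and was not called from replicate 2 alone. Fos was at 0.31 and -0.12 (mean 0.10 ± 0.12, adjusted p = 0.895), within the spread of the pair.

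Of 16 ERK feedback inhibitor genes, Spry1, which encodes a Sprouty protein, and Dusp14, which encodes a phosphatase of MAP kinases, were called increased, and the group median was 0.22. Spry1 stood at 0.88 and 0.53 (mean 0.70 ± 0.11, adjusted p = 0.0134) and was not called from replicate 2 alone. Dusp14 stood at 0.61 and 0.59, mean 0.60 ± 0.07 (adjusted p = 0.006), just past 1.5-fold and not called with slide as a block, and its second probe at 0.57 was just under. None of 14 CREB and ATF factor genes was called, with a range of -0.42 to 0.50.

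Phosphoinositide and calcium signaling held 4 increased genes of 32 and no decreased gene, with a median of 0.12. Plcd1, a phospholipase C, stood at 1044 against 464 and 943 against 423 (log2 ratios 1.17 and 1.16, mean 1.16 ± 0.06, adjusted p = 0.000451). Plcd3, of the same family, had a mean of 0.71 ± 0.07 (adjusted p = 0.00327). Itpka, which encodes a kinase of inositol trisphosphate, stood at 664 against 314 and 560 against 292 (mean 1.01 ± 0.07, adjusted p = 0.00156). Sphk1, which makes sphingosine 1-phosphate, had a mean of 1.06 ± 0.09 (adjusted p = 0.00253), and its second probe was called at 0.72. Every MAA signal of these 4 genes lay above every control signal of the same probe.

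Cytokines and chemokines held 6 increased genes of 21 and no decreased gene, with a median of 0.18. Cx3cl1 encodes the membrane-bound chemokine fractalkine, and it rose 1.92-fold, with signals of 1677 against 868 and 1409 against 735 (log2 ratios 0.95 and 0.94, adjusted p = 0.0015). Tnfsf11, the RANK ligand, had a mean of 0.92 ± 0.09 and Cxcl10 a mean of 0.85 ± 0.07 (adjusted p = 0.0027 and 0.00246). Ccl17, Il11 and Tslp stood between 0.65 and 0.67. Ccl17, at 0.46, and Il11, at 0.61, were not called from replicate 1 alone. Cxcl12, a chemokine, stood at -0.51 (adjusted p = 0.13).

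Of 13 monocarboxylate and glucose transporter genes, Slc2a4, Slc2a3 and Slc2a6, all of the facilitative glucose transporter family, were called increased, and the group median was 0.19. Slc2a6 stood at 0.65 and 1.18 (mean 0.92 ± 0.12, adjusted p = 0.00795). Slc2a3 stood at 0.81 and 1.41 (mean 1.11 ± 0.22, adjusted p = 0.0348), with a control signal of 12.2 and 6.64, well above background on 1 array, and was not called from replicate 1 alone or with slide as a block. Of 7 EGF family genes only Areg was called, and the values ran from -0.74 to 2.28 with a median of -0.18. Hbegf, another ligand of the EGF receptor, stood at 0.57 (adjusted p = 0.0164), under 1.5-fold.

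All 7 linker histone genes were above background, 2 were called increased and the median was 0.42, the highest of the 19 groups. H1f0, which encodes the replication-independent H1.0, stood at 0.52 and 0.66 (mean 0.59 ± 0.07, adjusted p = 0.00566), and its other probes were called at 0.75 and 0.76. The named probe was not called from replicate 1 alone. H1f3 stood at 1.47 and 1.02 (mean 1.24 ± 0.20, adjusted p = 0.0161), was not called from replicate 2 alone, and its second probe at 0.21 was not called. H1f2, at 0.47, H1f10, at 0.42, H1f4, at 0.30, H1f5, at 0.11, and H1f1, at -0.07, were not called. None of 10 histone deacetylase genes was called, with a range of -0.17 to 0.32.

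Interferon-inducible genes were the group with most decreases. Of 22 genes 3 were called decreased and none increased, with a median of -0.18. Beside Ifit1, Gbp2 stood at -0.64 and -1.15 (mean -0.90 ± 0.12, adjusted p = 0.00853) and Iigp1, an immunity-related GTPase, at -0.34 and -1.15 (mean -0.75 ± 0.16, adjusted p = 0.0488). Iigp1 was not called from replicate 1 alone or with slide as a block. Members moved unequally, since Psmb9, a subunit of the immunoproteasome, stood at 0.48 (adjusted p = 0.00968). Gbp2 and Gbp2b are close paralogs, and whether their probes share signal was not tested. Cxcl10, which rose, is also known as an interferon-inducible gene.

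In the IGF and CCN group Igfbp5, an IGF binding protein, was the only call of 11 genes, at -0.80 and -0.76 (mean -0.78 ± 0.09, adjusted p = 0.00563). Among cell type markers, Sox9, a Sertoli cell factor, rose, at 1.09 and 0.52 (mean 0.80 ± 0.17, adjusted p = 0.0402) and was not called from replicate 2 alone. It was the only call of the 5 Sertoli cell markers above background, which ranged from -0.25 to 0.80 with a median of -0.03. Lum, a proteoglycan of connective tissue, stood at -0.56 and -0.92 (mean -0.74 ± 0.17, adjusted p = 0.0565) and was called from neither array alone. Its call was also lost when any single array of 1 mM 8 h or 24 h was left out, its ratio staying at -0.74. It was the only call of the 9 peritubular and fibroblast-like markers above background, which ranged from -0.74 to 0.16 with a median of -0.02. The summed signal of the 9 Sertoli cell markers was 5563 with MAA and 6022 in control on replicate 1 and 4931 and 6216 on replicate 2, and that of the 10 peritubular and fibroblast-like markers 281393 and 317263, and 298410 and 303580. Most of the Sertoli sum was Wt1, with control signals of 5586 and 5827. The part of these cell types in the calls was not tested. No gene was called among 11 for steroid hormone synthesis, 21 for cholesterol synthesis and uptake, 24 nuclear receptors, 21 for heat shock, oxidative and endoplasmic reticulum stress, 13 for the circadian clock, 24 for the cell cycle, or 15 for activin, BMP and TGF-beta signaling, by limma's test. Over these 7 groups the values ran from -0.47 to 0.47.

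**Figure D4:**
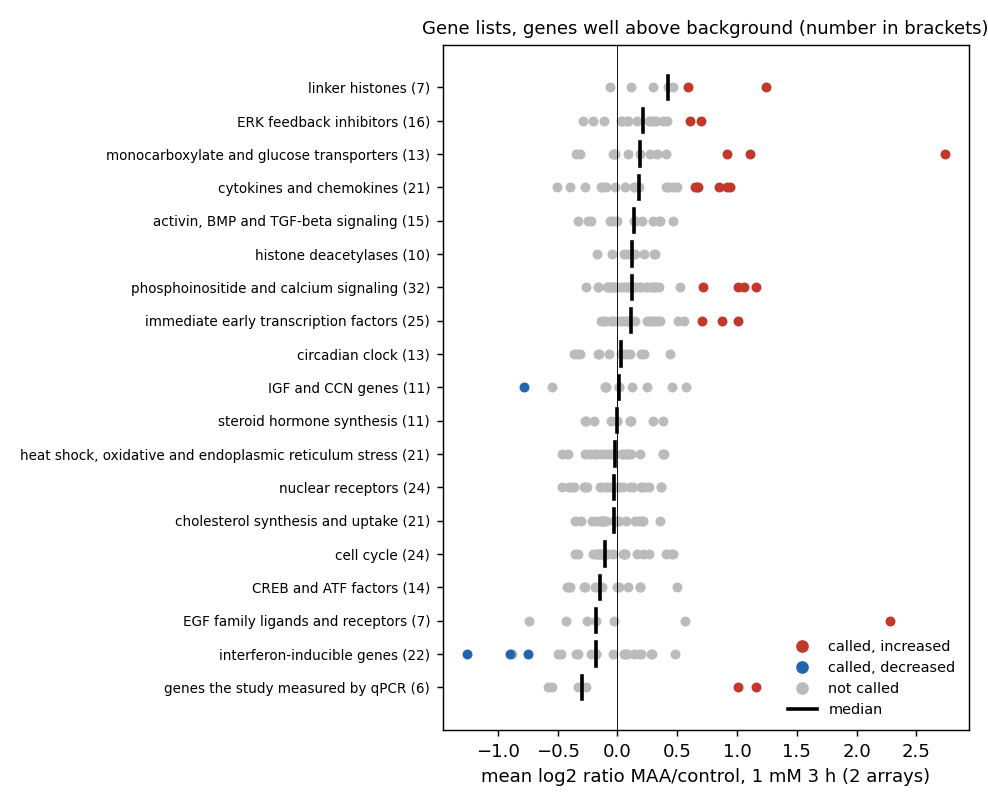
Mean log2 ratio of MAA-treated over control signal at 1 mM 3 h (x axis) for the genes of 19 gene groups, 1 point per gene well above background, with increased genes in red, decreased genes in blue, others in grey and the group median as a black bar. Linker histones have the highest median, 0.42, and interferon-inducible genes hold 3 of the decreased genes.

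Of 9 genes measured by qPCR in the study, Cyp17a1, Shbg and Igfbp3 were known MAA-responsive genes used to check the RNA, and the other 6 were chosen on these samples and are no independent evidence of direction. Kcnab3 and Itpka were called increased on the arrays. Kcnab3, a subunit of potassium channels, stood at 382 against 169 and 318 against 145 (log2 ratios 1.18 and 1.13, mean 1.16 ± 0.06, adjusted p = 0.000334). Ly96, which encodes the lipopolysaccharide coreceptor MD-2, stood at -0.57 and -0.53 (mean -0.55 ± 0.05, adjusted p = 0.00336), 1.46-fold and so just under the threshold. Pcdhb15, a protocadherin, stood at -0.33 (adjusted p = 0.0453). The named probe of Abca9, a lipid transporter, stood at -0.58 (adjusted p = 0.242), while its other probe was called at -0.87 (adjusted p = 0.021). Cyp17a1, a steroid hydroxylase, stood at -0.33 and -0.19 (adjusted p = 0.434). The paper reports that qPCR found Cyp17a1 increased with MAA and that its arrays did not show this. Igfbp3, Rasgrp2 and Shbg failed the background criterion in all 4 channels, and no fold is given for them.

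Promoters of 4 of these genes are shown because Areg rose and Ifit1, Gbp2 and Gbp2b fell, and each holds a motif near its start. They are RefSeq sequences of GRCm38.p6, each 300 bases on the plus strand, running from 250 bases before the start of transcription to 50 bases after. Capitals in Areg mark a cyclic AMP response element, TGACGTCA, and a TATA box, TATAAA, and in the others an interferon element, written as TTTC, any 2 bases and TTTC again.
Areg, chr5:91139349-91139648: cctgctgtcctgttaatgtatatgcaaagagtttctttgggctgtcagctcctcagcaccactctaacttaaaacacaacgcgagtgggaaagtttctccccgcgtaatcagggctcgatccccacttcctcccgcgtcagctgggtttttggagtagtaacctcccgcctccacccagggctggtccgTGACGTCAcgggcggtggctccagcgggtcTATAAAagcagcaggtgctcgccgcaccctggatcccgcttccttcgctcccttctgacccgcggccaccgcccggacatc
Ifit1, chr19:34640639-34640938: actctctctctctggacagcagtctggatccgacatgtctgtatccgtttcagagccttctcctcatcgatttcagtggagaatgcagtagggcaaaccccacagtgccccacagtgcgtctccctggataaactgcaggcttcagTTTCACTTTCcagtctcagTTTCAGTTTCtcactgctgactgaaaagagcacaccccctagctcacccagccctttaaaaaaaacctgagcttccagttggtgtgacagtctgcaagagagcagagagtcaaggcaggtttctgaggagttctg
Gbp2, chr3:142620413-142620712: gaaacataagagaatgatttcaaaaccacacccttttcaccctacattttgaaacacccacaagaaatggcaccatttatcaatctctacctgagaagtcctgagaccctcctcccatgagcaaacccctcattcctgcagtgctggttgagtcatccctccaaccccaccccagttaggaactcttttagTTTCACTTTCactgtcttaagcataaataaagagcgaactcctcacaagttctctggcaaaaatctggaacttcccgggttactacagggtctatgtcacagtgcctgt
Gbp2b, chr3:142594597-142594896: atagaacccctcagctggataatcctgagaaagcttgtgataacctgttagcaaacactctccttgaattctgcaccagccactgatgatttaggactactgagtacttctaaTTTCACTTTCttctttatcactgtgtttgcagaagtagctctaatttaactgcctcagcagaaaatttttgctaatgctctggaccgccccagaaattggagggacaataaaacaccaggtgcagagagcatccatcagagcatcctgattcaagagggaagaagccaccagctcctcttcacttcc

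In Areg the cyclic AMP response element began 61 bases and the TATA box 31 bases before the start. The interferon element began 104 and 85 bases before the start in Ifit1, 59 in Gbp2 and 137 in Gbp2b. Promoters were on hand for 168 of 224 symbols called increased and 63 of 97 called decreased, with several starts for some genes. Searched on both strands, the interferon element was in 10.7% of 75 promoters of decreased genes, in 3.15% of 222 of increased genes and in 3.16% of the 11379 promoters of genes above background. The decreased genes holding it were Gbp2, Gbp2b, Ifit1, Parp11, Tmco4, Tmem17, Trim21 and Trmt10a. Increased genes held it as well, namely Cxcl10, Extl1, Fam169b, Itpka, Lactb, Nyap1 and Plcd3. The GAS element TTCNNNGAA, also an interferon motif, was in 4% of promoters of decreased and 7.66% of increased genes against 6.91% above background, and the RBPJ site GTGGGAA in 6.67% and 5.86% against 5.90%. The cyclic AMP response element was in 4% of promoters of decreased and 1.80% of increased genes against 2.80% above background, and the GC box GGGCGG in 53.3% and 62.6% against 60.1%. The AP-1 site TGACTCA was in 4% and 4.95% against 4.02%, and the TATA box in 6.67% and 12.6% against 8.38%. The EGR site GCGTGGGCG was in 0% and 0.901% against 1.11%. These shares describe the letters in the window, without a test.

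The higher concentration at the same time gave larger ratios for many of the called probes. The 469 increased probes had a median log2 ratio of 0.76 at 1 mM and 1.13 at 5 mM, and the 213 decreased probes of -0.74 and -1.42. As the probes were chosen by their 1 mM value and both concentrations were compared with control cells of 3 h, these medians are given side by side only. By limma's contrast the difference had an adjusted p under 0.05 at 199 (29.2%) of the 682, against 5.17% of the 26196 probes. The contrast reuses the 1 mM ratios and the spread by which the 682 were chosen, so their higher share can come from that choice. Of the 103 increased probes among the 199, 99 were higher at 5 mM, and all 96 decreased probes were lower. Leaving out single arrays brought the 199 to between 29 and 156, with 10 of the 12 arrays giving 128 or fewer, centring each array on its median gave 70, and the replicate block gave 321.

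Kcnab3 and Sphk1 stood close to their 1 mM values at 5 mM. Kcnab3 had 1.16 at 1 mM and 1.22 at 5 mM (adjusted p of the difference 0.929), and Sphk1 had 1.06 and 1.04 (adjusted p = 0.981). Slc2a4 stood at 2.74 and 4.12 (adjusted p = 0.0205), Kank3 at 1.48 and 2.50 (adjusted p = 0.00506) and Egr1 at 0.71 and 2.18 (adjusted p = 0.00938). Chst1 stood at 1.45 and 1.16 (adjusted p = 0.136).

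The genes with the largest excess of the 5 mM over the 1 mM response ranged at 1 mM from uncalled to called. Dnajc6 stood at -1.02 and -3.23 (adjusted p of the difference 0.00801). Fos stood at 0.10 and 1.84 (adjusted p of the difference 0.00655), Ccn1, a secreted matrix protein, at 0.25 and 1.83 (adjusted p = 0.00506) and Ccdc96 at 0.10 and 1.63 (adjusted p = 0.00801). Cxcl5, a chemokine, stood at -0.27 and -2.84 (adjusted p = 0.00506), and its 1 mM log2 ratios on the arrays were -0.23 and -0.31. Ptgfr, the prostaglandin F receptor, was called at 1 mM, at -0.43 and -0.91 (adjusted p = 0.0384), but not from replicate 1 alone, and at 5 mM its MAA signal was not well above background, a fall of at least 3.73-fold. Ggt5 stood at -0.64 and -2.84 (adjusted p of the difference 0.0179), its second probe being called at 1 mM at -0.69. Per3, a clock gene, stood at 0.00 and -0.15 on the arrays at 1 mM, and the difference to 5 mM, where its control signal was dim, did not pass the test (adjusted p = 0.184).

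At 1 mM the called probes had smaller medians at later times, 0.53 at 8 h and 0.44 at 24 h for the increased and -0.41 and -0.36 for the decreased probes, as can be so for probes chosen by their 3 h value. No probe of the 26196 (0%) differed between 8 h and 3 h at an adjusted p under 0.05 in limma, while 2881 (11.0%) and 313 (45.9%) of the 682 did at an unadjusted p under 0.05. The replicate block gave 40 of the called probes. The smallest adjusted p among the called probes was 0.0582, at Tlr7, which stood at -0.98 at 3 h and 0.07 at 8 h. Between 24 h and 3 h, 120 (17.6%) of the 682 differed at an adjusted p under 0.05, against 2.47% of all 26196. Of these, 79 had been increased at 3 h, 11 of them being higher at 24 h, and 41 decreased, 40 of them being higher at 24 h. This count was 7 to 91 without single arrays, 46 with each array centred on its median, 266 with the replicate block and 0 in a fit of the 6 arrays at 1 mM only. The contrasts of 8 h and of 24 h reuse the 3 h ratios and the spread by which the 682 were chosen. The higher shares among the 682 can therefore come from that choice.

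Named genes followed several courses. Kcnab3 stood at 1.16, 1.20 and 1.02 at 3, 8 and 24 h, and Itpka at 1.01, 1.11 and 1.16. Areg stood at 2.28, 1.63 and 0.75, with an adjusted p of 0.0081 between 24 h and 3 h. Kank3 stood at 1.48, 0.81 and 0.79 (adjusted p = 0.0144), and Chst1 rose from 1.45 to 2.58 at 24 h (adjusted p = 0.00302). Nr4a1 stood at 0.88, 0.36 and 0.48 (adjusted p = 0.0932 between 24 h and 3 h).

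**Figure D5:**
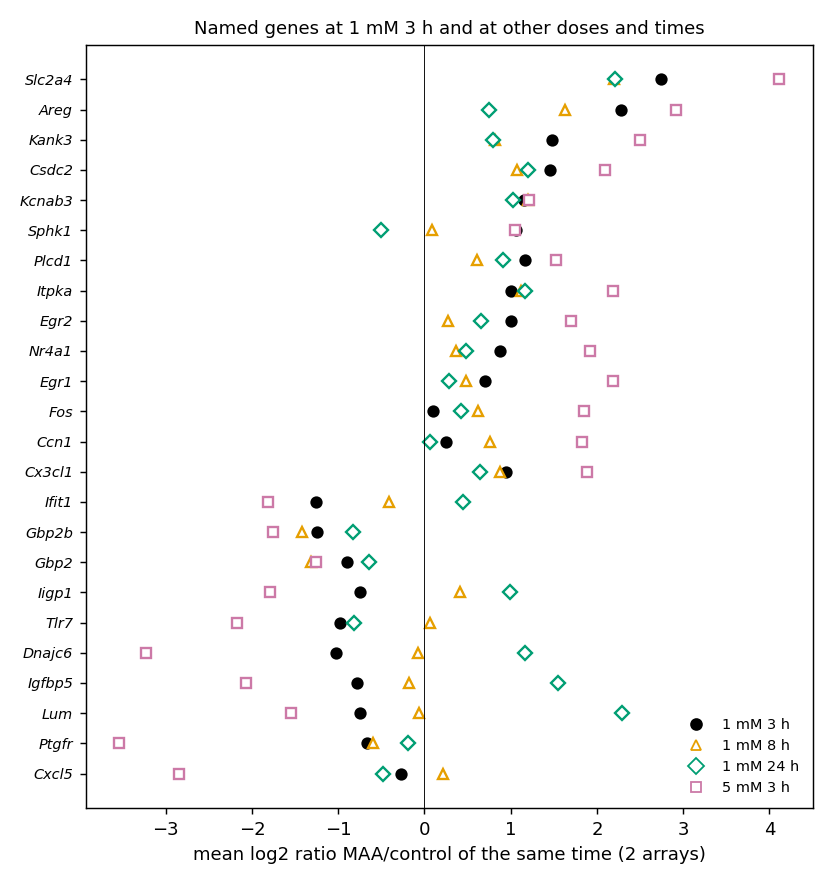
Mean log2 ratio of MAA-treated over control signal for 24 named genes at 1 mM 3 h (black circles), 1 mM 8 h (triangles), 1 mM 24 h (diamonds) and 5 mM 3 h (squares), each mean being over 2 arrays. Slc2a4 is highest at 5 mM 3 h, at 4.12, and Lum, Igfbp5 and Dnajc6 lie below 0 at 3 h and above 0 at 24 h of 1 mM.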

How the data were processed

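The labels describe RNA of pooled TM3 cultures amplified to aminoallyl RNA and labelled with Alexa 555 or Alexa 647. The deposited scanner output was made by the authors with Agilent Feature Extraction 9.5.3.1 and holds processed signal intensities, corrected for background and normalized between dyes, of 45018 spots per array. The deposited table of the series holds log10 ratios already turned to MAA over control, which correlated with the turned scanner ratios on every array. The error model the study used for its p-values was not run.

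Control spots (1639) and spots marked as outliers (155 and 208 on the pair) were left out, and spots of a probe were averaged to 41174 probes without centring. Gene symbols came from RefSeq accessions, for 22072 probes. The limma package 3.58.1 in R 4.3.3 fitted all 12 arrays with 1 coefficient per treatment, 6 residual and 1.515 prior degrees of freedom, the median SE being 0.0971. Precision is limited by the number of arrays. Lower limits on folds used channels normalized by Aquantile and each array's lowest signal well above background. Figures were drawn with Python 3.11.15 and matplotlib 3.10.9.

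Members, gene lists and rules were chosen with earlier results of these data known, and the motifs after the values were seen. Named genes are the 12 with the largest change in each direction among called probes past 1.5-fold on both arrays, every called gene of a list, the genes of the study's qPCR, and the 4 in each direction called at 5 mM 3 h with the largest difference from 1 mM. Of the leading decreases 3 are not reported here. Genes outside that rule are named where they were chosen after their values were seen, as with other members of a list and other probes of a gene. The alternatives were normexp with loess, the scanner's log ratio, the series table, centring, filters, outlier spots, blocks, call rules, subsets of arrays, an intensity trend and leaving out each array. Steps were tested on simulated data.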

Additional observations from a re-analysis of the deposited data

Results flagged for a closer look

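Of the named genes called at 1 mM 3 h, 8 had a log2 ratio at 24 h of the opposite sign with an adjusted p under 0.05 for the difference in limma, each being a ratio to control cells of its own time. Lum stood at -0.74 at 3 h and 2.29 at 24 h, a difference of 3.03 (adjusted p = 0.00324). Igfbp5 differed by 2.33 (-0.78 and 1.55, adjusted p = 0.00229) and Dnajc6 by 2.18 (-1.02 and 1.16, adjusted p = 0.00889). The interferon-inducible genes Iigp1 and Ifit1 differed by 1.74 (-0.75 and 0.99, adjusted p = 0.0177) and 1.70 (-1.26 and 0.44, adjusted p = 0.0109). Tmem178 differed by 1.68 (-1.01 and 0.67, adjusted p = 0.0383) and Lrrc66 by 1.38 (-0.99 and 0.39, adjusted p = 0.00631). Sphk1 was the only increased gene of the 8, at 1.06 and -0.51, a difference of -1.57 (adjusted p = 0.0045). The genes had been chosen by their 3 h values. At 24 h Ifit1, Lrrc66 and Sphk1 stood under 1.5-fold, and the test was of the difference, not of the 24 h ratio. Fitted from the 6 arrays at 1 mM only, 0 called probes differed between 24 h and 3 h, and without single arrays 7 to 91 did, against 120 in the fit of all arrays. Lum and Tmem178 were called at 3 h from neither array alone, and Dnajc6 and Iigp1 not from replicate 1 alone, at -0.77 and -0.34.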

How the results depend on the processing

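The count of 682 called probes stayed between 546 and 866 under 13 of 15 alternatives, and between 607 and 697 when single arrays were left out. Without replicate 1 of the pair 681 probes were called, 458 of them shared with the 682 and 59.6% increased, and without replicate 2 there were 607, with 445 shared and 73.6% increased, against 68.8% of the 682. The exceptions were normexp with loess, with 116 calls, 50.9% of them increased, and the pair fitted alone, with 49. Normexp added an offset of 50 to signals that had not been processed, while the median control signal of the increased probes, 81.0, is a processed signal. These scales differ, and no other offset was tried. The part of the offset in the lower count was not tested. The replicate block gave 723 calls, 659 of them shared, and slide as a block 743, with 595 shared.

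The 199 called probes that differed at 5 mM 3 h became 80 with normexp and loess, 70 with each array centred on its median, 321 with the replicate block, and 29 to 156 without single arrays. The 120 that differed at 24 h became 21 with normexp and loess, 195 with the scanner's log ratio, 191 with the series table, 46 with centring, 266 with the replicate block, 0 in the 6 arrays at 1 mM only, and 7 to 91 without single arrays. The count of 0 at 8 h became 2 with normexp and loess, 47 with the scanner's log ratio, 50 with the series table, 3 with outlier spots kept, 40 with the replicate block, and 0 to 2 without single arrays. The causes were not tested.

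No value of a called named gene changed sign under any of its 26 or 27 alternatives, and the replicate block ended no call of a named gene. Many alternatives could not change the sign, since the ratio is the mean of the pair. Leaving out an array of another treatment, the replicate block and the call rules do not move it. The called genes also had the same sign on both arrays beforehand. The replicate number of an array is also its dye orientation. Of the 47 named called genes, 35 were not called with normexp and loess, 3 with slide as a block, 7 without replicate 1 and 10 without replicate 2. In the dimmest of the 5 groups of probes, with control signals under 47.6, the arrays of the pair did not correlate positively. The part of signal over background in this was not tested. The correlation of the pair over all probes kept was 0.308 with normexp and loess. The alternatives for this correlation were added after seeing the data.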

Other observations

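Second probes of called genes were read on the same pair of arrays and so share any effect of dye or pool. A called gene had another probe above background in 88 cases, with 104 such probes. Of these 97 had the same sign as the called probe and 29 were called, all in the same direction as the called probe. The called probe of each gene was the one with the largest change. The shares for second probes of all genes are not given, so these counts are descriptions only. A further 121 probes met the call rule while not well above background in a channel on both arrays.

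Past 1.5-fold in the same direction, 201 of the 469 increased probes stood at 1 mM 8 h, 181 at 1 mM 24 h, 417 at 5 mM 3 h, 376 at 5 mM 8 h and 313 at 5 mM 24 h. Of the 213 decreased probes, 61, 47, 208, 182 and 123 did. In the opposite direction past 1.5-fold at 5 mM 24 h stood 1 increased and 10 decreased probes, and at 1 mM 24 h 5 and 8. These counts are descriptions, since the probes were chosen by their 1 mM 3 h ratio. The shares of all probes kept that passed 1.5-fold at each treatment are not given. The counts therefore do not tell a response carried over from the general rate of a treatment.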
